A study of Mus musculus with 12 samples.

Results

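Fibronectin and the integrin chains of macrophages were followed in mouse bone-marrow-derived macrophages with and without miR-210, before and after IL-4. The 10 genes, of 56941 in the count tables, were picked by name, with earlier results of the same 12 libraries known and no measured value or threshold in the rule, and they are Fn1, Itga4, Itga5, Itgav, Itgb1, Itgb5, Itgam, Itgax, Itgal and Itgb2. All 10 were found by their Ensembl identifiers and all 10 passed the filter on low counts in each comparison. Because the choice was made with results in view, the adjusted p values given for these genes come from fits over all genes and describe those fits. They are no independent support for the choice.

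Monocytes were isolated from the bone marrow of C57BL/6J mice by removing other cells with magnetic beads and grown to M0 macrophages over 7 days in serum and L929-conditioned medium, the source of M-CSF (L929 is a fibroblast line of the mouse). M2 macrophages were then exposed to IL-4 at 20 ng/mL for 72 hours, and M0 cultures were kept alike without it. The miR-210 knockout (KO) derives from miR-210 floxed mice crossed with Gata-1 Cre mice, and KO and wild-type (WT) mice were bred from heterozygotes. The age of the mice was not given in the sources used here. There were 3 libraries in each of the 4 groups WT M0, KO M0, WT M2 and KO M2, with no statement of how many mice they represent, so the p values measure the spread between these libraries only.

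The libraries held 7930525 to 10167695 counts. Mir210, the deleted gene, had 1 to 5 counts in the 6 WT libraries and 0 in the 6 KO libraries. The batch named in the labels is different for every group, and in no comparison can it be told apart from the group. The 8 macrophage markers summed to 9165 to 10360 CPM, the TMM-normalized count scaled to library size, in M0 and 7443 to 8237 CPM in M2. In M2 against M0, 4 of the 8 were called lower in WT and 5 in KO, and 0 higher. Over all genes tested, 20.9% were called lower in WT and 16.4% in KO. Fcgr1 fell most of the 8, from 498 to 63.0 CPM on average in WT. Of 6 lymphocyte markers, 4 were at 0 in all 12 libraries. The 4 endothelial markers summed to 22.4 to 38.4 CPM in M0 and 8.58 to 12.8 CPM in M2. Among them Kdr averaged 31.6 CPM in WT M0 and 9.59 CPM in WT M2. The 7 erythroid and megakaryocyte markers summed to 2.61 to 7.60 CPM in M0 and 8.85 to 12.6 CPM in M2. Among these Ppbp averaged 2.84 CPM in WT M0 and 9.65 CPM in WT M2. The IL-4 response markers Arg1, Retnla, Mrc1 and Chil3 were called higher in M2 in both genotypes. In bulk RNA, fewer cells of a type and less RNA per cell cannot be told apart.

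Integrins are surface receptors made of an alpha and a beta chain that bind matrix proteins or ligands on other cells. Fibronectin, encoded by Fn1, is a large secreted matrix protein. The alpha 5 chain (Itga5) pairs with beta 1 (Itgb1) as the classical fibronectin receptor. Alpha 4 (Itga4) with beta 1 also binds fibronectin and VCAM-1. Alpha V (Itgav) pairs with beta 1, beta 5 (Itgb5) or beta 3 in receptors for fibronectin, vitronectin or both. The beta 2 chain (Itgb2, CD18) is restricted to leukocytes and pairs with alpha M (Itgam, CD11b) as complement receptor 3, alpha X (Itgax, CD11c) as complement receptor 4, and alpha L (Itgal, CD11a) as LFA-1, the receptor for ICAM-1.

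The 10 genes lie on GRCm39 at 1:71624673-71692419 for Fn1, 2:79085660-79163467 for Itga4, 15:103252713-103275270 for Itga5, 2:83554403-83637260 for Itgav, 8:129411876-129460618 for Itgb1, 16:33649988-33771137 for Itgb5 and 10:77366086-77401542 for Itgb2. The 3 partners of Itgb2 are all on chromosome 7, where Itgam (127661808-127717753) and Itgax (127728668-127749829) are near neighbours and Itgal lies at 126895432-126934320. All are protein-coding. Fn1 and Itga5 are on the minus strand and the other 8 on the plus strand.

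Sequence was read at 2 places where the study's design points to it, the starts of the genes for factors of IL-4 and of the myeloid lineage, and their ends for miR-210. RefSeq promoter windows, from 250 bases before to 50 bases after a gene's start on GRCm38.p6, were matched for 7 of the 10 genes, which leaves out Fn1, Itgal and Itgb2. The letters TTC and GAA with any 4 bases between them, bound by STAT6, the factor activated by the IL-4 receptor, were searched on both strands and occurred in 1 of the 7 windows, that of Itgax, and in 6.95% of all 32851 windows. The letters GAGGAA, part of the site of the myeloid factor PU.1, occurred on either strand in 4 of the 7 windows (Itga5, Itgav, Itgb1 and Itgam) and in 28.3% of all windows. The windows of Itgax and Itgam are shown because these neighbouring genes for partners of the same beta chain differed widely in their change with IL-4. Capitals mark the STAT6 letters in Itgax, which starts at -127 from the gene's start, and GAGGAA or its reverse complement in Itgam, at -84, -15 and 33.
Itgax (chr7:128129300-128129599, plus strand): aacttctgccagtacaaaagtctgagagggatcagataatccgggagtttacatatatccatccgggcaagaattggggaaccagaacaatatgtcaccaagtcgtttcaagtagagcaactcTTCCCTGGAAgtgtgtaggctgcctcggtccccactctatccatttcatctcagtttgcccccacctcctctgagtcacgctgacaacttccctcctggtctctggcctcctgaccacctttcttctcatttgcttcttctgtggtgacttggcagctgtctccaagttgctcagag
Itgam (chr7:128062390-128062689, plus strand): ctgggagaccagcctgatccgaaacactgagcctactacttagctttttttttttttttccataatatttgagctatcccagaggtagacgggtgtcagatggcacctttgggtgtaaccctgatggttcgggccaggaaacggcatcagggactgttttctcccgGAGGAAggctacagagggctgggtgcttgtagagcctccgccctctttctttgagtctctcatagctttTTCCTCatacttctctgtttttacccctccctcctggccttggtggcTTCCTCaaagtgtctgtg

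The mature miR-210-3p, missing in the KO cells, is shown with its seed, bases 2 to 8, in capitals.
miR-210-3p: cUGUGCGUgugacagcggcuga
The letters ACGCACA, which pair with that seed, were in none of the longest annotated 3' UTRs of the 10 genes, and in 881 of 20956 genes with a 3' UTR (4.2%). Matches and their absence describe these windows only.

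In M0 macrophages Itgb1 stood highest of the 10 genes and Fn1 lowest. Per kb of merged exons, the scale on which genes are compared here, the WT M0 level of Itgb1 was 82.2 ± 6.6 CPM per kb (SD, n = 3), followed by 56.0 ± 6.5 for Itgb2 and 54.3 ± 7.3 for Itgam, which did not differ beyond their spread. Itgb5 followed at 18.8 ± 0.77. The 3 fibronectin-binding alpha chains were close to each other at 11.5 ± 0.89 for Itgav, 10.1 ± 1.2 for Itga5 and 9.53 ± 0.95 for Itga4. Their order depends on the length used, with 19.1 for Itgav, 16.0 for Itga4 and 12.2 for Itga5 by the longest transcript. Itgal (1.90 ± 0.63), Itgax (0.702 ± 0.17) and Fn1 (0.136 ± 0.056) were far below. KO M0 had the same order except that Itgam (68.0 ± 4.0) stood above Itgb2 (63.2 ± 3.7), again within their spread.

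In M2 macrophages Itgb2, Itgax and Fn1 led the order. In WT M2, the level of Itgb2 was 147 ± 18 CPM per kb and that of Itgax 143 ± 6.9, which did not differ beyond their spread, and Fn1 followed at 115 ± 7.9. Itgam (82.6 ± 5.1) and Itgb1 (79.97 ± 5.4) came next and overlapped, then Itgb5 (32.0 ± 0.99), Itga5 (15.8 ± 0.68), Itgav (9.31 ± 0.57) and Itga4 (8.49 ± 1.2), with Itgal last at 0.725 ± 0.22. The place of Fn1 depends on the length used, since its merged exons span 15831 bases and its longest transcript 8410. By the longest transcript its WT M2 level was 216 CPM per kb, the highest of the 10 in both M2 groups in place of the third highest. The place of Itgam in M0 and M2 carries a limit from an overlapping gene, given with Itgam below.

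**Figure D1:**
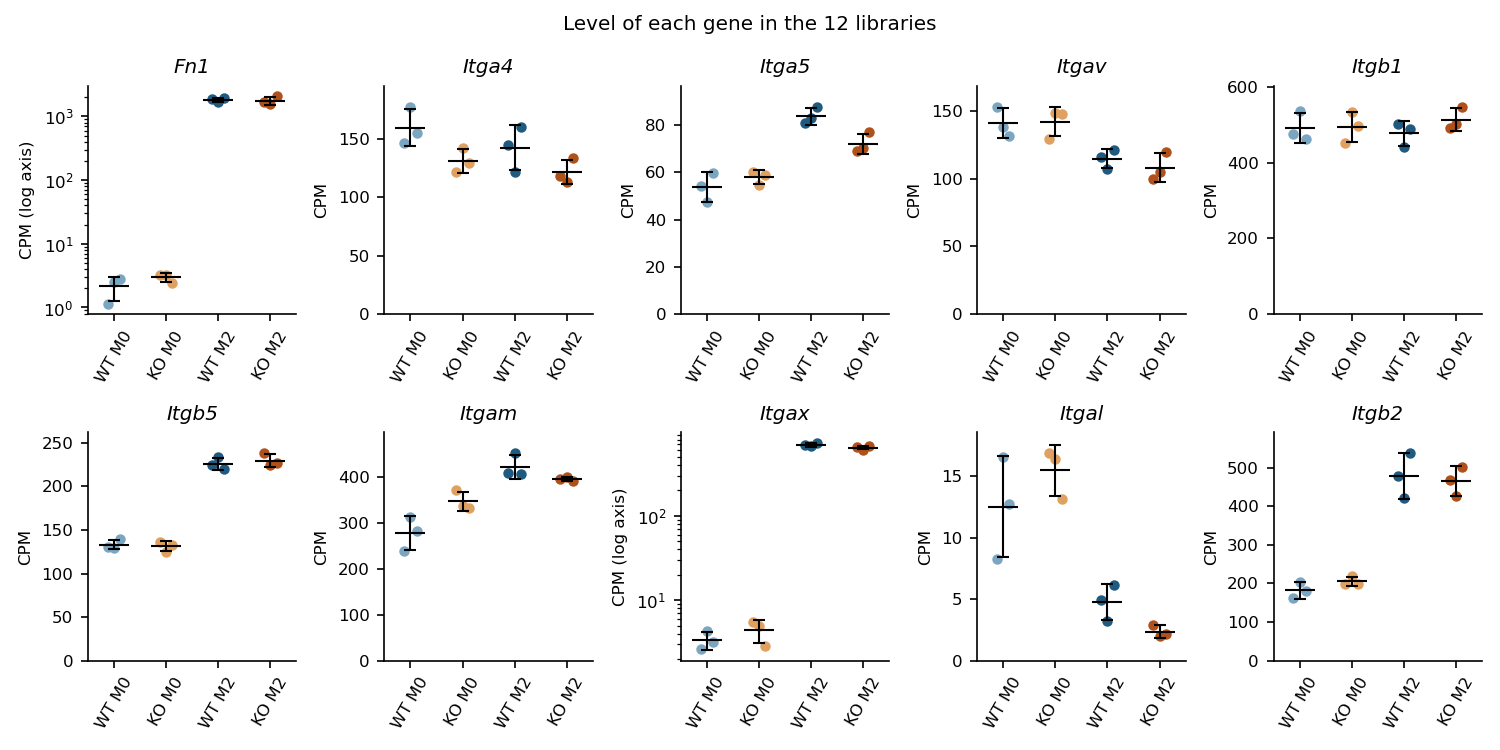
CPM of each of the 10 genes in the 12 libraries (points), with the group mean (long bar) and SD (whiskers, n = 3). Fn1 and Itgax are on log axes and the others on linear axes that start at 0, so heights are not comparable between panels, and the M2 points of Fn1 and Itgax lie above 600 CPM against under 6 CPM in M0.

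Fn1 changed most with IL-4 among the 10 genes. Its level in WT M0 was 1.15, 2.48 and 2.81 CPM, from 9, 24 and 28 counts. In WT M2 it was 1866, 1676 and 1910 CPM, from 15950, 16010 and 15530 counts. Every M2 library lay far above every M0 library, and Fn1 moved from 0.000225% of the counts in WT M0 to 0.180% in WT M2, where it ranked 26th of all genes by CPM. The log2 fold change of M2 against M0 in WT was 9.68 (SE 0.15, edgeR's quasi-likelihood test with Benjamini-Hochberg adjustment, adjusted p = 6.2e-14), the 17th largest increase of 14266 genes tested.

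The KO cells showed the same pattern for Fn1. KO M0 had 3.24, 3.28 and 2.40 CPM, and KO M2 had 1680, 1545 and 2061 CPM. The log2 fold change was 9.22 (SE 0.17, edgeR adjusted p = 2e-12), the 14th largest increase of 14331 genes tested. The M0 levels rest on 9 to 34 counts a library, and removal of duplicate reads by the authors may lower the counts of abundant genes, so the size of the change is less certain than its direction.

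Markers of matrix-producing stromal cells were near 0. The 8 fibroblast and stromal markers, among them Col1a1, Col1a2 and Col3a1, summed to 3.06 to 5.60 CPM over the 6 M0 libraries. Over the 6 M2 libraries they summed to 0.702 to 2.29 CPM, and Col1a1 was at 0 in all of these. Acta2 averaged 2.10 CPM in WT M0 and 0.769 CPM in WT M2, while Pdgfrb averaged 0.144 and 0.373 CPM. The part of such cells in the Fn1 result was not tested. Apol7d, a noncoding gene on the other strand that overlaps the 5' part of Fn1, moved with it, with 0 to 2 counts per M0 library and 153 to 176 per M2 library. This was 1.06% to 1.07% of the Fn1 counts in the M2 groups, and its part in the result was not tested.

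Over 12 libraries, the protein-coding genes whose log2 CPM was most like that of Fn1 were Itgax (Pearson r = 0.998), Phldb1 (0.998) and Tspan5 (0.998), of 11200 genes compared. The 12 points fall into an M0 and an M2 cluster, and 145 genes had an r above 0.99, so this only names genes with the same step between M0 and M2. Phldb1 rose from 6.11 CPM in WT M0 to 41.4 CPM in WT M2 on average, and Tspan5, a tetraspanin, from 11.99 to 96.0 CPM, so the likeness is in shape and not in size.

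Itgax was the integrin chain with the largest change among the 9. It encodes CD11c, widely used as a marker of dendritic cells and of some macrophages. WT M0 libraries had 2.68, 4.33 and 3.21 CPM, and WT M2 libraries had 682, 666 and 731 CPM. KO M0 libraries had 5.58, 5.02 and 2.90 CPM, and KO M2 libraries had 648, 607 and 665 CPM. All M2 values lay above 600 CPM and all M0 values below 6 CPM, and the log2 fold change was 7.65 (SE 0.12, edgeR adjusted p = 5.1e-14) in WT and 7.17 (SE 0.16, edgeR adjusted p = 1.1e-11) in KO.

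Dendritic cell markers moved with Itgax, through a single gene. The 7 markers summed to 0.516 to 1.45 CPM in M0 and 11.1 to 19.3 CPM in M2. Zbtb46, a transcription factor of classical dendritic cells, made up most of the M2 sum, at 14.8 CPM in WT M2 and 10.96 CPM in KO M2 on average, and the other 6 averaged under 1 CPM in every group. Flt3 was at 0 in both M2 groups, and Siglech and Cd209a were at 0 in KO M2. The part of such cells in the Itgax result was not tested. Of the 50-base stretches of the longest Itgax transcript, 9.49% also occur in Itgad, which had 0 to 4 counts per library.

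Itgb2, the beta chain shared by the 3 leukocyte alpha chains, also rose with IL-4. Its level was 161, 203 and 181 CPM in WT M0 and 478, 420 and 537 CPM in WT M2. In KO M0 it was 199, 219 and 198 CPM and in KO M2 468, 426 and 502 CPM. The M0 and M2 groups did not overlap, with log2 fold changes of 1.40 (SE 0.10, edgeR adjusted p = 7.8e-08) in WT and 1.20 (SE 0.083, edgeR adjusted p = 1.7e-07) in KO.

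Itgam, the most abundant partner of Itgb2 in M0, changed less. WT M0 libraries had 238, 313 and 282 CPM and WT M2 libraries 409, 452 and 406 CPM. KO M0 libraries had 372, 338 and 334 CPM and KO M2 libraries 397, 400 and 391 CPM. M2 lay above M0 without overlap in both genotypes, by a log2 fold change of 0.61 (SE 0.091, edgeR adjusted p = 8.6e-05) in WT and 0.21 (SE 0.074, edgeR adjusted p = 0.048) in KO. The second is under the limit for a call, a fold change of 1.2, so Itgam was called in WT and not in KO, and the difference between these 2 changes is given with the interaction below. Gm49368, a gene on the same strand that overlaps Itgam, contains 70.9% of the 50-base stretches of its longest transcript, and held 0 to 6 counts per library. Reads that match both may have been counted for neither, which was not tested. Neutrophils also carry Itgam and Itgb2, and the 9 neutrophil markers summed to 98.1 to 119 CPM in M0 and 134 to 183 CPM in M2, of which Csf3r, also found on monocytes, averaged 101 to 168 CPM over the groups. Ly6g was at 0 in all 12 libraries and the other 7 averaged under 4 CPM in every group, and the part of these markers in the result was not tested.

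Itgal, the alpha chain of LFA-1, fell with IL-4. It had 8.29, 16.5 and 12.8 CPM in WT M0 (65, 160 and 127 counts) and 4.91, 3.25 and 6.15 CPM in WT M2 (42, 31 and 50 counts). In KO M0 it had 16.9, 16.4 and 13.1 CPM and in KO M2 2.93, 1.97 and 2.12 CPM, from 24, 19 and 17 counts. Neither genotype's M0 and M2 groups overlapped, and the log2 fold change was -1.41 (SE 0.26, edgeR adjusted p = 0.00055) in WT and -2.71 (SE 0.20, edgeR adjusted p = 3.7e-07) in KO.

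The make-up of the beta 2 family by RNA therefore differed between M0 and M2. Of the summed per-kb level of Itgam, Itgax and Itgal, Itgam was 95.5% ± 0.76 in WT M0 and 36.5% ± 2.4 in WT M2, and Itgax was 1.22% ± 0.14 and 63.2% ± 2.3 (SD, n = 3). Itgal was 3.29% ± 0.65 in WT M0 and 0.320% ± 0.095 in WT M2. The KO libraries gave 95.4% ± 0.67 and 36.9% ± 1.4 for Itgam and 1.29% ± 0.36 and 62.9% ± 1.3 for Itgax. The ratio of the 3 alpha chains together to Itgb2 was 1.01 ± 0.032 in WT M0 and 1.55 ± 0.18 in WT M2, and 1.13 ± 0.11 in KO M0 and 1.47 ± 0.084 in KO M2, so the libraries of M0 (0.977 to 1.25) and M2 (1.38 to 1.75) did not overlap. These are ratios of RNA levels and not of paired proteins, and no test was made on them. Reads of Itgam that also match Gm49368 (70.9% of its 50-base stretches) may have gone uncounted. The shares and ratios that include Itgam are less certain for that reason, and the size of this effect was not tested.

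**Figure D2:**
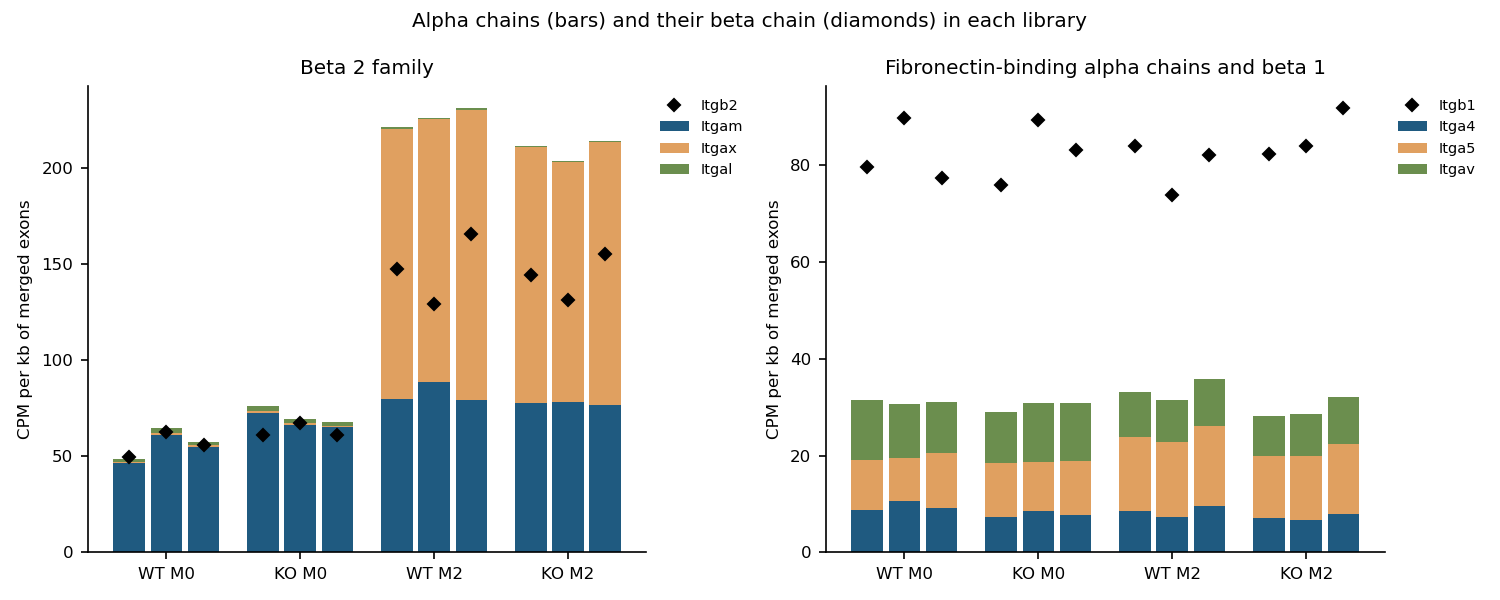
Level in CPM per kb of merged exons in each of the 12 libraries, with alpha chains as stacked bars and the beta chain as a diamond. On the left Itgax makes up most of each M2 bar and almost nothing of the M0 bars, and on the right the sum of Itga4, Itga5 and Itgav stays between 28 and 36 CPM per kb, below Itgb1 in all 12 libraries.

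Of Itga4, Itga5, Itgav and the beta chains Itgb1 and Itgb5, only Itga5, Itgav and Itgb5 were called with IL-4. Itga5, of the classical fibronectin receptor, rose from 54.4, 47.4 and 59.7 CPM in WT M0 to 80.7, 83.0 and 87.8 CPM in WT M2, a log2 fold change of 0.65 (SE 0.086, edgeR adjusted p = 3e-05). In KO it rose from 60.3, 54.8 and 58.9 CPM to 69.0, 70.4 and 77.0 CPM, a log2 fold change of 0.33 (SE 0.085, edgeR adjusted p = 0.0082). The M0 and M2 groups did not overlap in either genotype.

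Itgav, which takes several beta chains, was lower in M2. Its level was 132 to 153 CPM in WT M0 and 107 to 121 CPM in WT M2, and 130 to 149 CPM in KO M0 and 100 to 120 CPM in KO M2. The log2 fold changes of -0.29 (SE 0.073, edgeR adjusted p = 0.0055) in WT and -0.37 (SE 0.091, edgeR adjusted p = 0.0062) in KO were small and close to the fold limit. Without WT M0 library 1 or WT M2 library 2 the value in WT was -0.23 or -0.24, which is under that limit.

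Itgb5, a partner of alpha V, rose from 129 to 139 CPM in WT M0 to 220 to 234 CPM in WT M2, and from 125 to 136 CPM in KO M0 to 224 to 238 CPM in KO M2. Its log2 fold change was 0.78 (SE 0.063, edgeR adjusted p = 2.9e-07) in WT and 0.82 (SE 0.075, edgeR adjusted p = 2.2e-06) in KO. Itga4 and Itgb1 were not called in either genotype, and their M0 and M2 values overlapped. Itgb1 had 440 to 548 CPM in all 12 libraries and log2 fold changes of -0.03 (SE 0.076) in WT and 0.07 (SE 0.081) in KO. Itga4 had 113 to 177 CPM in all 12 libraries and log2 fold changes of -0.16 (SE 0.098) in WT and -0.09 (SE 0.088) in KO.

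Among Itga4, Itga5 and Itgav, the share of Itga5 in their summed per-kb level was 32.5% ± 3.5 in WT M0 and 47.0% ± 2.1 in WT M2, and that of Itgav 36.8% ± 2.6 and 27.8% ± 0.49. In KO the share of Itga5 was 36.1% ± 2.8 in M0 and 45.8% ± 0.76 in M2. The ratio of the 3 chains to Itgb1 was 0.380 ± 0.033 in WT M0, 0.420 ± 0.022 in WT M2, 0.366 ± 0.020 in KO M0 and 0.344 ± 0.0058 in KO M2. WT M2 (0.395 to 0.437) did not overlap KO M2 (0.340 to 0.351), while WT M0 (0.342 to 0.403) overlapped both WT M2 and KO M0 (0.345 to 0.384).

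In all, 6 of the 10 genes were called higher in M2 in WT (Fn1, Itga5, Itgb5, Itgam, Itgax and Itgb2) and 2 lower (Itgav and Itgal), where a call needs an adjusted p below 0.05 together with a fold change of at least 1.2 either way. Over all genes tested, 43.0% were called in WT, 22.1% higher and 20.9% lower. In KO, 5 were called higher and 2 lower, against 33.8% called over all genes, 17.4% higher and 16.4% lower. The M0 and M2 levels did not overlap for 8 of the 10 genes in WT, where 57.0% of all genes did not, and for 8 of 10 in KO, where 46.6% did not. The median log2 fold change of the 10 genes was 0.63 in WT and 0.27 in KO, beside -0.0012 and -0.0078 over all genes. Since the genes were picked with results known, these counts describe the list only.

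**Figure D3:**
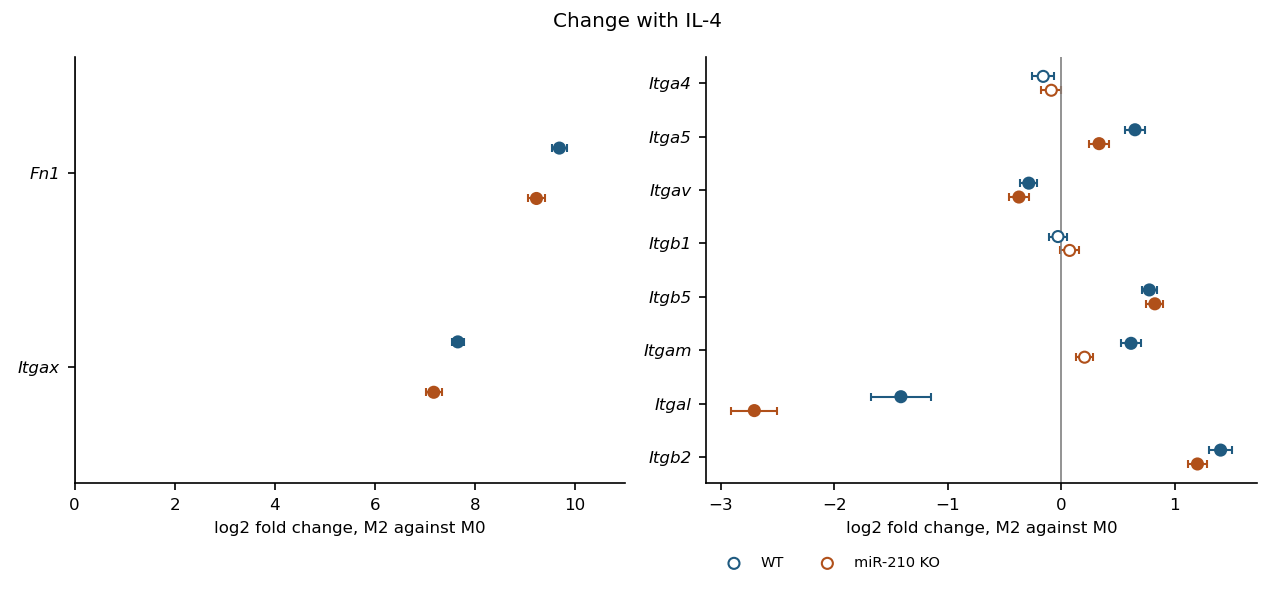
Log2 fold change of M2 against M0 (points) with its standard error (bars) in WT (blue) and miR-210 KO (orange), on 2 horizontal scales. Filled points passed the call and open points did not, and Fn1 and Itgax lie between 7.17 and 9.68 while the other 8 genes lie between -2.71 and 1.40.

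The comparison of KO with WT asks how these genes differed between the genotype groups, and none of the 10 was called in M0 or in M2. By edgeR, 0.461% of all genes were called in M0 (65 genes, and 1410 at an unadjusted p under 0.05) and 0.980% in M2 (137 genes, and 1498 unadjusted). By the DESeq2 Wald test 219 and 140 genes were called, again with none of the 10. Of the 10 genes, 2 had an unadjusted p under 0.05 in M0 and 3 in M2. An absent call does not show that the genotypes are alike.

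In M0, Itga4 and Itgam were the genes whose KO and WT values did not overlap, 2 of 10 where 15.0% of all genes did not overlap. Itga4 had 147, 177 and 155 CPM in WT M0 and 121, 142 and 129 CPM in KO M0, a log2 fold change of -0.30 (SE 0.095, edgeR adjusted p = 0.26, ranging from 0.043 to 0.60 over 13 settings). Itgam, with 238 to 313 CPM in WT M0 and 334 to 372 CPM in KO M0, had a log2 fold change of 0.31 (SE 0.10, edgeR adjusted p = 0.30). Without a filter on low counts the adjusted p of Itgam was 0.039, and it ranged from 0.039 to 0.77 over 13 settings. The other 8 genes lay between -0.03 and 0.42, where the 0.42 of Fn1 has an SE of 0.32 and rests on 9 to 34 counts.

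In M2, Itga5, Itgam, Itgax and Itgal did not overlap between genotypes, 4 of 10 where 16.1% of all genes did not, and all 4 were lower in KO. Itgal differed most, with 2.93, 1.97 and 2.12 CPM in KO M2 below 4.91, 3.25 and 6.15 CPM in WT M2. Its log2 fold change was -1.01 (SE 0.27, edgeR adjusted p = 0.098), from 17 to 50 counts a library. Without WT M2 library 2 the log2 fold change was -1.24 and the adjusted p 0.024, without a filter on low counts the adjusted p was 0.0024, and over 13 settings it ranged from 0.0024 to 0.44. Itga5 had a log2 fold change of -0.21 (SE 0.068, edgeR adjusted p = 0.21), Itgax of -0.11 (SE 0.054) and Itgam of -0.09 (SE 0.055). Fn1 differed by -0.04 (SE 0.083), Itgb2 by -0.04 (SE 0.079) and Itgb5 by 0.02 (SE 0.054), each less than its error. Itga4, whose groups overlapped, had -0.22 (SE 0.089, edgeR adjusted p = 0.36). Itgb1 had 0.11 (SE 0.062) and Itgav -0.08 (SE 0.075).

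**Figure D4:**
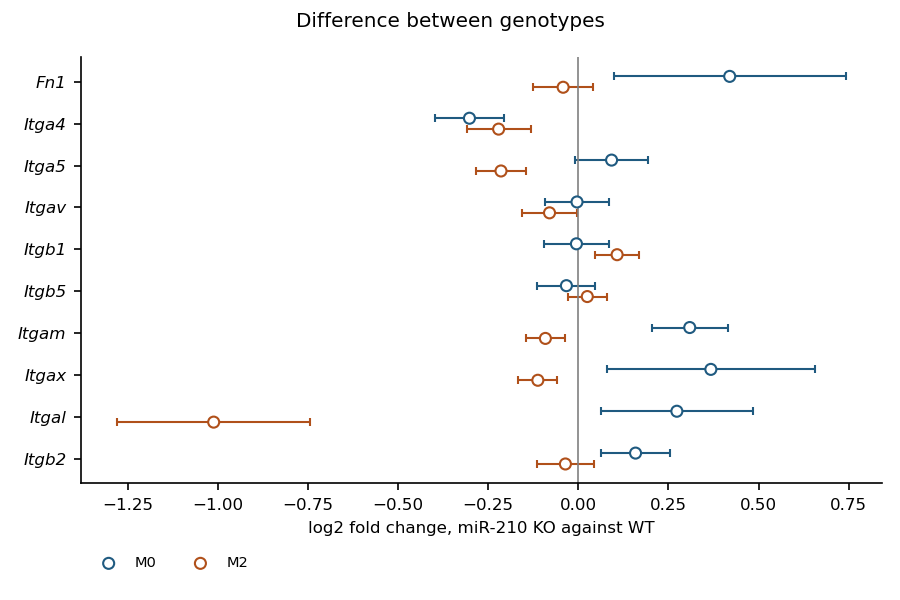
Log2 fold change of miR-210 KO against WT (points) with its standard error (bars) in M0 (blue) and M2 (orange). All points are open because none of the 10 genes passed the call, and Itgal in M2 lies farthest from 0 at -1.01.

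The interaction asks whether the change with IL-4 differed between the genotypes, in 1 fit of the 12 libraries. None of the 10 genes was called, and by edgeR 0 of 14825 genes were (0%), with 1327 at an unadjusted p under 0.05, against 72 by DESeq2. Itgal had the largest value of the 10, with -1.29 (SE 0.39, edgeR adjusted p = 0.28) on the log2 scale, followed by -0.48 (SE 0.24) for Itgax and -0.45 (SE 0.31) for Fn1. Itgam had -0.41 (SE 0.12, edgeR adjusted p = 0.28), so the call of Itgam in WT and not in KO is not shown to be a difference between genotypes. Itga5 had -0.31 (SE 0.12, edgeR adjusted p = 0.42), Itgb2 -0.20 (SE 0.14) and Itgav -0.08 (SE 0.12). The values above 0 were 0.11 (SE 0.11) for Itgb1, 0.08 (SE 0.14) for Itga4 and 0.05 (SE 0.092) for Itgb5. Without a filter on low counts Itgal (adjusted p = 0.0012) and Itgam (adjusted p = 0.017) were called, and over 18 settings the adjusted p ranged from 0.0012 to 0.58 for Itgal and from 0.017 to 0.49 for Itgam.

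Other genes of the integrin system, from lists drawn up by function, are set beside these changes. Over all genes tested, 22.1% were called higher and 20.9% lower in WT, and 17.4% and 16.4% in KO. The medians over all genes were -0.0012 in WT and -0.0078 in KO, for this list and those below. Of 18 other integrin chains, 7 were tested in WT, 3 were called higher and 3 lower in M2 (median log2 fold change -0.30). Itgb3, which pairs with alpha V as a vitronectin and fibronectin receptor, averaged 1.40 CPM in WT M0 and 84.4 CPM in WT M2, a log2 fold change of 5.96 (SE 0.19). Itgb8, a partner of alpha V that binds latent TGF-beta, rose by 5.21 (SE 0.25) on the log2 scale, and Itga1, a collagen receptor chain, by 3.97 (SE 0.34), from 0.451 and 0.348 CPM in WT M0. The called decreases were in Itga6 (358 to 101 CPM, log2 fold change -1.82, SE 0.069), a laminin receptor chain, in Itga9 (-1.40, SE 0.14) and in Itgb7 (-1.07, SE 0.27). In KO, 9 were tested with 3 called higher and 3 lower, and none was called between genotypes. The decreases in KO were not all in the same genes. Itgb7 was not called in KO (-0.56, SE 0.21, edgeR adjusted p = 0.054), and Itga8, not tested in WT, was (-3.40, SE 0.37, edgeR adjusted p = 1.1e-05).

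Of 30 other integrin ligands, 14 were tested in WT, with 8 called higher, 1 lower and a median log2 fold change of 0.77. In KO 13 were tested, with 6 higher and 3 lower (median 0.26). The shares over all genes were 22.1% higher and 20.9% lower in WT, and 17.4% and 16.4% in KO. Between genotypes in M2, 0.980% of all genes were called. Mfge8, which bridges dying cells to alpha V integrins, rose from 38.7 to 301 CPM in WT (log2 fold change 2.97, SE 0.068), Edil3, a related bridging protein, by 2.07 (SE 0.11), and the complement protein C3, whose fragment iC3b binds alpha M and alpha X, by 1.63 (SE 0.17). Ccn2 fell by 3.02 (SE 0.48) on the log2 scale from 1.34 CPM. Mfge8 was the only ligand called between genotypes, in M2, with 301 ± 12 CPM in WT and 215 ± 21 CPM in KO (SD, n = 3) and a log2 fold change of -0.48 (SE 0.066, edgeR adjusted p = 0.001).

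Of 17 genes for fibronectin assembly and crosslinking, 11 were tested in WT, with 6 called higher and 4 lower (median 0.26). In KO 12 were tested, with 5 higher and 6 lower (median -0.15). The shares over all genes were 22.1% higher and 20.9% lower in WT, and 17.4% and 16.4% in KO. The increases were led by Sdc1, a heparan sulfate proteoglycan (20.8 to 192 CPM, log2 fold change 3.23, SE 0.16), Tgm2, a transglutaminase that crosslinks and binds fibronectin (167 to 846 CPM, 2.35, SE 0.069), and the urokinase receptor Plaur (25.7 to 91.9 CPM, 1.83, SE 0.13). The decreases were led by Tns1 (-1.70, SE 0.15), F13a1, the crosslinking chain of factor XIII (-1.38, SE 0.33), and Sdc3 (1966 to 762 CPM, -1.36, SE 0.071). None was called between genotypes in M0 or M2. The lowest adjusted p values of the list in M0 were just above the limit. They were those of Plaur (log2 fold change 0.94, SE 0.18, edgeR adjusted p = 0.052) and Tgm2 (0.51, SE 0.10, edgeR adjusted p = 0.058). The paper, which used DESeq2, lists Tgm2 among predicted miR-210 targets upregulated in KO M0. In M2, Sdc4 (0.24, SE 0.052, edgeR adjusted p = 0.038) was under the fold limit.

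Of 42 genes for integrin activation and adhesion signalling, 37 were tested, and 12 were called higher and 7 lower in each genotype. The medians were 0.0085 in WT and -0.048 in KO. The shares over all genes were 22.1% higher and 20.9% lower in WT, and 17.4% and 16.4% in KO. Between genotypes in M2, 0.980% of all genes were called. Src, a kinase of focal adhesions, rose from 2.80 to 55.3 CPM in WT (log2 fold change 4.31, SE 0.12), Parvg by 2.49 (SE 0.14) and Actn1, an alpha-actinin, by 2.17 (SE 0.080). The decreases were led by Fyb1 (-1.39, SE 0.097) and the Src family kinase Lyn (-1.26, SE 0.061). Between genotypes Src and Zyx, a focal adhesion protein, were called in M2, both lower in KO. Src averaged 41.6 CPM in KO M2 against 55.3 CPM in WT M2 (log2 fold change -0.41, SE 0.089, edgeR adjusted p = 0.037) and Zyx 185 against 244 CPM (-0.40, SE 0.083, edgeR adjusted p = 0.027).

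**Figure D5:**
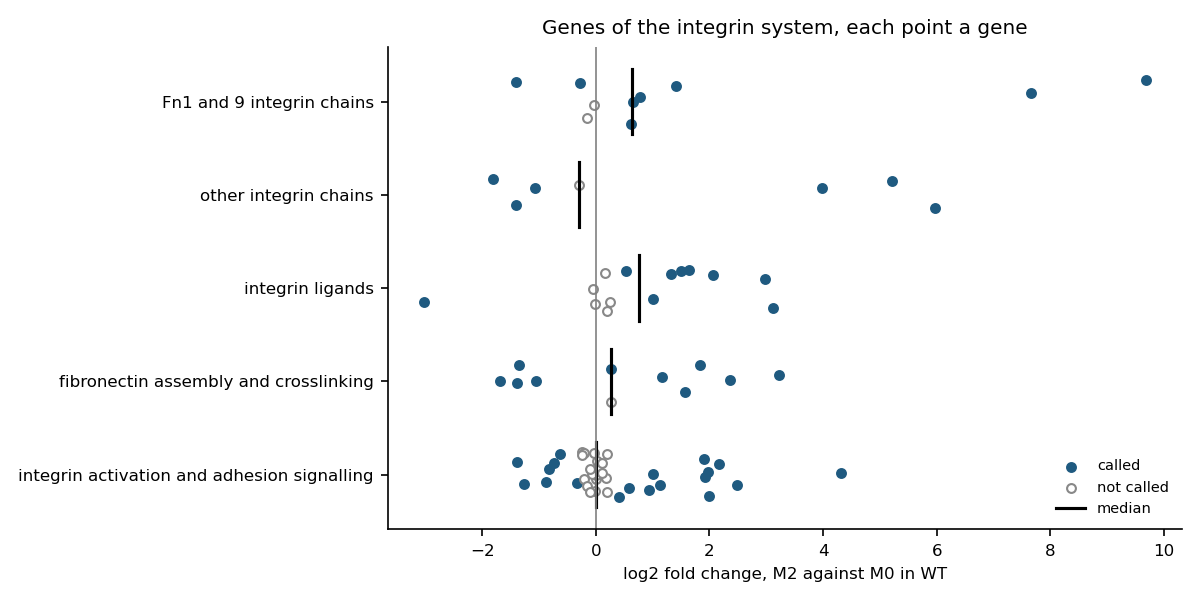
Log2 fold change of M2 against M0 in WT for the genes tested of each list, each point a gene, filled where called, with the list's median as a black line. The medians run from -0.30 for the other integrin chains to 0.77 for the ligands, and every list but that of the ligands has at least 2 called genes on each side of 0.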

How the data were processed

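RNA from 12 macrophage cultures, 3 in each of 4 groups, was depleted of ribosomal RNA and sequenced in stranded, paired-end mode. The authors trimmed reads with Trimmomatic, removed duplicates with Picard, aligned to GRCm39 with STAR and counted reads per gene and strand with featureCounts, and deposited the counts without normalization in 4 tables, each for a pair of groups. The authors also deposited a normalized signal, each count over the size factor of its library, which served only as an alternative for levels. Columns were mapped to groups by name, and their numbers 1 to 3 are not tied to samples.

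Symbols came from GENCODE release 39 of the mouse, which matched 56323 of 56941 identifiers. Each pair of groups was tested on its 6 libraries, and the interaction on all 12, in R 4.3.3 with edgeR 4.0.16 and its quasi-likelihood test (TMM normalization, filterByExpr, Benjamini-Hochberg adjustment over all genes tested). Calls needed an adjusted p below 0.05 and, for pairs, a fold change of at least 1.2 in either direction (0.263 on the log2 scale). The standard error is the log2 fold change over the root of the test's F. Levels are CPM after TMM over 12 libraries, and per kb of merged exons between genes. The test was run on counts simulated with the spread estimated from these data and 200 genes changed. In the data 6137 genes were called in M2 against M0 in WT, so the simulation says little of that comparison. Library totals were 7930525 to 10167695 counts, which limits precision for the low counts of Fn1 and Itgax in M0 and Itgal in M2. Within each group every 2 libraries differed beyond counting noise, and each was counted as 1 replicate. This difference does not show that the libraries come from different mice.

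The members, lists and rules were chosen with earlier results of these data known. All 10 members are covered in each comparison, by name or within a stated range. Of every other list, the 3 largest called changes in each direction in M2 against M0 in WT (mean CPM of at least 1) and every gene called between genotypes are named, with the 3 protein-coding genes most like Fn1, and the result of 1 gene so named is not reported here. Alternatives were the DESeq2 Wald test (version 1.42.0), RLE size factors, dropping or tightening the filter on low counts, the column number as a block, 1 fit of 12 libraries, a fold limit of 1 and each library left out. Levels per kb by the longest transcript were added after seeing the data. No protein sequences were used here.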

Additional observations from a re-analysis of the deposited data

How the results depend on the processing

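No member's call with IL-4 changed under the alternatives that kept all libraries and the fold limit. With the limit raised to 1 (log2), 4 members were called in WT and 4 in KO (2042 and 1800 genes). Between genotypes, genes called in M0 were 219 by DESeq2, 532 without a low-count filter, 284 with the replicate block, 248 in 1 fit of 12 libraries and 27 with the limit of 1, and in M2 360, 289, 60 and 40 for the last 4. The interaction called 72 genes by DESeq2 and 341, with 2 members, without the filter. Without the filter 1 member was called in M0 (Itgam) and 1 in M2 (Itgal). Whether the column numbers pair libraries could not be decided from 3 libraries a group. Correlations of same-numbered libraries ranged from -0.25 to 0.31, and the highest with another number from -0.13 to 0.27. With the replicate block 1 member was called in M0 (Itga4, edgeR adjusted p = 0.043) and 1 in M2 (Itgal, edgeR adjusted p = 0.028). The cause of these changes was not tested.

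Leaving out 1 library gave 20 (without WT M0 library 3) to 302 genes (without WT M0 library 2) in M0, 53 (without KO M2 library 2) to 215 (without KO M2 library 3) in M2, and 0 to 77 (without KO M0 library 2) for the interaction, with 0 to 1 members called in M2 and 7 to 8 in M2 against M0 in WT. Values near 0 changed sign. Without the filter Itgav and Itgb1 in M0 were 0.0046 and 0.0026. Leaving out a library, KO against WT in M0 ran from -0.044 to 0.056 for Itgav, -0.054 to 0.072 for Itgb1 and -0.062 to 0.010 for Itgb5, in M2 from -0.171 to 0.043 for Fn1 and -0.126 to 0.057 for Itgb2, Itgb1 in M2 against M0 in WT from -0.071 to 0.037, and the interaction of Itga4 from -0.033 to 0.161. By the longest transcript the beta 2 ratio was 1.053, 1.174, 1.705 and 1.612 in WT M0, KO M0, WT M2 and KO M2. The beta 1 ratio was 0.499, 0.475, 0.527 and 0.433 in the same order. Depth limits what can be said of Fn1 and Itgax in M0 and Itgal in M2.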
